A study of Mus musculus with 4 samples.

Results

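The genes described here are 7 markers that divide spinal motor neurons into subtypes, Mmp9, Chodl, Dlk1, Esrrb, Esrrg, Wnt7a and Spp1. They were taken by gene symbol from the 27189 genes of each file. Each symbol had 1 entry. Levels are in RPKM, the reads of a gene scaled by its transcript length and by the mapped reads of the library. All 7 had a mean of at least 1 RPKM over the 4 libraries and were tested, among 11530 such genes.

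RNA was sequenced from cell bodies that were laser microdissected from the ventral horn of spinal cord sections of mice at 3 months of age, with 1 library per mouse. The 2 wild-type libraries came from line 592, transgenic for wild-type human SOD1 fused to YFP, and the 2 G85R libraries from line 737, transgenic for the same fusion with the G85R mutation. Both lines had a C57BL/6J x SJL/J background and carried the human gene as a genomic fragment, so that expression of the transgene is not limited to motor neurons. Each genotype is represented by 1 transgenic line, and since the lines also differ in transgene copy number, genotype, line and copy number cannot be told apart. Nontransgenic mice are not analysed here. Between 3000 and 4000 cell bodies were pooled from each animal. They were chosen as large cells in an Azure B stain, and in the G85R mice cells with large aggregates, which stained darker, were passed over.

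A spinal motor pool holds alpha motor neurons, which drive the force-producing muscle fibers, and smaller gamma motor neurons, which set the tension of muscle spindles. Alpha motor neurons are further divided by the fibers they innervate. Fast-fatigable motor neurons are the first to retract from muscle in SOD1 mouse models of ALS, and slow and gamma motor neurons are the most resistant. Mmp9, Chodl and Dlk1 mark fast cells, Esrrb slow and gamma cells, Esrrg and Wnt7a gamma cells, and Spp1 alpha as opposed to gamma cells. The question was whether levels of these RNAs differed between presymptomatic G85R and wild-type mice.

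All 7 markers were detected in every library, with mean levels from 866 RPKM for Spp1 to 1.76 RPKM for Wnt7a. Spp1 was the marker with the clearest difference, at 70.5% of its wild-type mean in G85R, but it did not pass the test after adjustment over all genes. Of the markers of fast cells, Chodl and Mmp9 were lowest in G85R replicate 1, whereas Dlk1 was highest in that library and lowest in G85R replicate 2. Esrrg and Dlk1 had nearly the same mean in both genotypes. With limma, a linear model of each gene whose error estimate borrows from all genes, 0 of the 7 had a Benjamini-Hochberg adjusted p under 0.05, where 0.642% of all tested genes did, and the log-linear likelihood ratio test called 1. Only Spp1 had an unadjusted p under 0.05 with a lower level in G85R, where 6.37% of tested genes did. Both G85R values lay below both wild-type values for Spp1 and Esrrb, 2 of 7 markers, and for 23.9% of tested genes. The 7 log2 fold changes of G85R over wild-type were all below 0, as were those of 54.7% of tested genes, with a median of -0.24 against -0.02 for all tested genes.

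**Figure D1:**
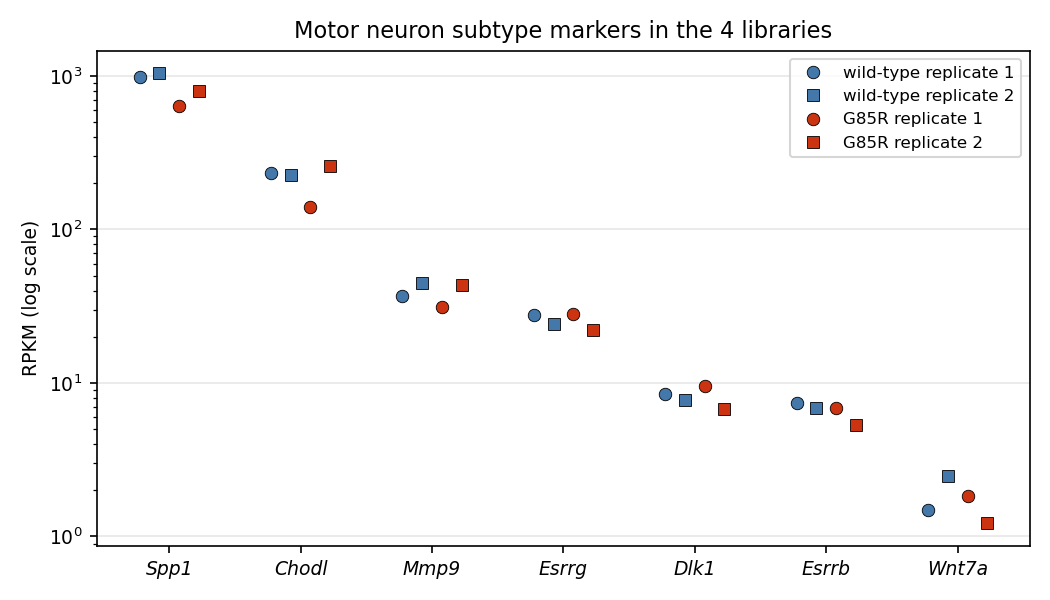
RPKM (log axis) of each subtype marker in the 4 libraries, with circles for replicate 1 and squares for replicate 2 of wild-type (blue) and G85R (red). The order from Spp1, between 635 and 1042 RPKM, down to Wnt7a, between 1.22 and 2.46 RPKM, was the same in all 4 libraries.

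RPKM are per length, so that comparisons of levels between genes depend on the length used for each gene. The order from high to low was Spp1, Chodl, Mmp9, Esrrg, Dlk1, Esrrb and Wnt7a in each of the 4 libraries, a span of 493-fold between the means. Spp1 ranked 38 and Chodl 287 among the 27189 genes. Wnt7a ranked 10391. The ranges of neighbors in this order did not overlap, except those of Dlk1 and Esrrb. Dlk1 was the higher of this pair in each library, by 1.13-fold to 1.40-fold. In wild-type replicate 1 the values came from an estimated 374 reads for Dlk1 and 748 for Esrrb. Their longest annotated transcripts have 4653 and 4300 bases, so that the order of this pair depends on the gene lengths used. Mmp9 and Esrrg lay close together, with a ratio between 1.11 and 1.95.

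Among the alpha cell markers, Spp1 (Entrez Gene 20750) encodes osteopontin, a secreted phosphoprotein of the extracellular matrix that binds integrins. It lies on the plus strand of chromosome 5 from 104864137 to 104870069 (NCBIM37) and has 8 exons after merging those of its transcripts. Its RPKM was 989.9 and 1042 in wild-type replicates 1 and 2, and 635 and 796 in G85R replicates 1 and 2, from an estimated 42014, 46976, 24628 and 32792 reads. Both G85R libraries were below both wild-type libraries, and the gap between the means exceeded the difference between the replicates of either genotype. The means were 1016 ± 36.5 in wild-type against 716 ± 114 in G85R (SD, n = 2 each), a 1.42-fold lower level in G85R. The log2 fold change of RPKM + 0.1 was -0.51 (standard error 0.12, 95% interval -0.81 to -0.22), with an adjusted p of 0.174 from limma. With the replicate number added to the model as a block, the adjusted p was 0.00678 from limma. The labels do not say what replicates of a number share. Without G85R replicate 2 the log2 fold change was -0.68, and without G85R replicate 1 it was -0.35. Such fits hold 1 G85R library and no spread between G85R mice, so that only the fold change is given here. In libraries made from many cells, fewer cells of a type and less RNA per cell cannot be told apart. The study reported evidence of differential splicing of Spp1 in the G85R strain only, and values per gene do not show splicing.

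The log-linear likelihood ratio test, computed as a Poisson model of RPKM with 1 read added, gave a different call. With it Spp1 had an unadjusted p of 1.33e-24 and an adjusted p of 9.03e-21 from the chi-square distribution. Of all 27189 genes, of which 8570 were at 0 in every library, 0.0846% were called as lower in G85R. This share is therefore not one among genes as abundant as Spp1. That model takes RPKM, rounded to whole numbers, as counts and includes no spread between animals. Over all alternatives the adjusted p of Spp1 ran from 9.03e-21 to 0.968. None of the other 6 markers was called by the log-linear test. Genes of low RPKM, such as Wnt7a between 1.22 and 2.46 RPKM, enter that test as small counts and can hardly be called. The absence of a log-linear call therefore says little for such genes, here and in the lists below. For 1 gene at a time, the smallest p that a two-sided exact permutation test can reach with 2 libraries against 2 is 0.333.

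Of 9 general motor neuron markers, 8 also had a log2 fold change below 0, where 54.7% of all tested genes did. Chat, the enzyme of acetylcholine synthesis, was 66.3 and 81.2 RPKM in wild-type against 49.6 and 65.5 in G85R, with an adjusted p of 0.482 from limma. Relative to Chat in the same library, Spp1 was 14.9 and 12.8 in wild-type against 12.8 and 12.2 in G85R, so that on that scale the lower wild-type value and the higher G85R value were nearly the same. When each library was rescaled by the mean log2 level of 9 motor neuron markers, an alternative chosen after the values were seen, the log2 fold change of Spp1 was -0.27 since the rescaling adds 0.24 to the log2 fold change of every gene. The log2 fold changes of Mmp9, Esrrb, Esrrg and Dlk1 were closer to 0 than this shift and so lay above 0 on that scale, as did that of Rbfox3, a marker described further on.

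Chodl (246048) encodes chondrolectin, a membrane protein with a C-type lectin domain that marks fast motor neurons. It lies on the plus strand of chromosome 16 from 78931193 to 78951978. The RPKM of Chodl was 232 and 226 in wild-type against 140.1 and 258 in G85R replicates 1 and 2. The G85R libraries were the lowest and the highest of all, whereas the wild-type libraries were 1.03-fold apart. The log2 fold change came to -0.27 (standard error 0.25, 95% interval -0.87 to 0.33, adjusted p = 0.794 from limma). This value rested on G85R replicate 1. Without that library it was 0.17, and without G85R replicate 2 it was -0.71. In the alternatives with all 4 libraries, the lowest adjusted p of Chodl was 0.435, from limma with a replicate block.

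Mmp9 (17395), on the plus strand of chromosome 2 from 164766280 to 164781350, encodes a secreted gelatinase that cleaves extracellular matrix and is enriched in fast-fatigable motor neurons. Mmp9 had 37.0 and 45.1 RPKM in wild-type against 31.2 and 43.2 in G85R. As with Chodl, G85R replicate 1 had the lowest value, but the genotypes overlapped. The log2 fold change came to -0.16 (standard error 0.18, 95% interval -0.57 to 0.26, adjusted p = 0.841 from limma). It was 0.08 without G85R replicate 1 and -0.39 without G85R replicate 2. Neutrophils also make Mmp9, and their 7 markers summed to 0.544 and 0.103 RPKM in the G85R libraries, while each was listed at 0 in wild-type and 3 of them in all 4 libraries.

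Dlk1 (13386), on chromosome 12 from 110691033 to 110701546 on the plus strand, encodes a membrane protein with EGF-like repeats that is related to the Notch ligands and promotes fast motor neuron properties. Its RPKM was 8.47 and 7.80 in wild-type against 9.53 and 6.74 in G85R. The G85R values enclosed the wild-type values. The means were 8.14 ± 0.471 in wild-type against 8.14 ± 1.97 in G85R (SD, n = 2 each), and the log2 fold change came to -0.02 (standard error 0.18, 95% interval -0.45 to 0.41, adjusted p = 0.984 from limma). Unlike Chodl and Mmp9, Dlk1 was higher in G85R replicate 1 than in G85R replicate 2.

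**Figure D2:**
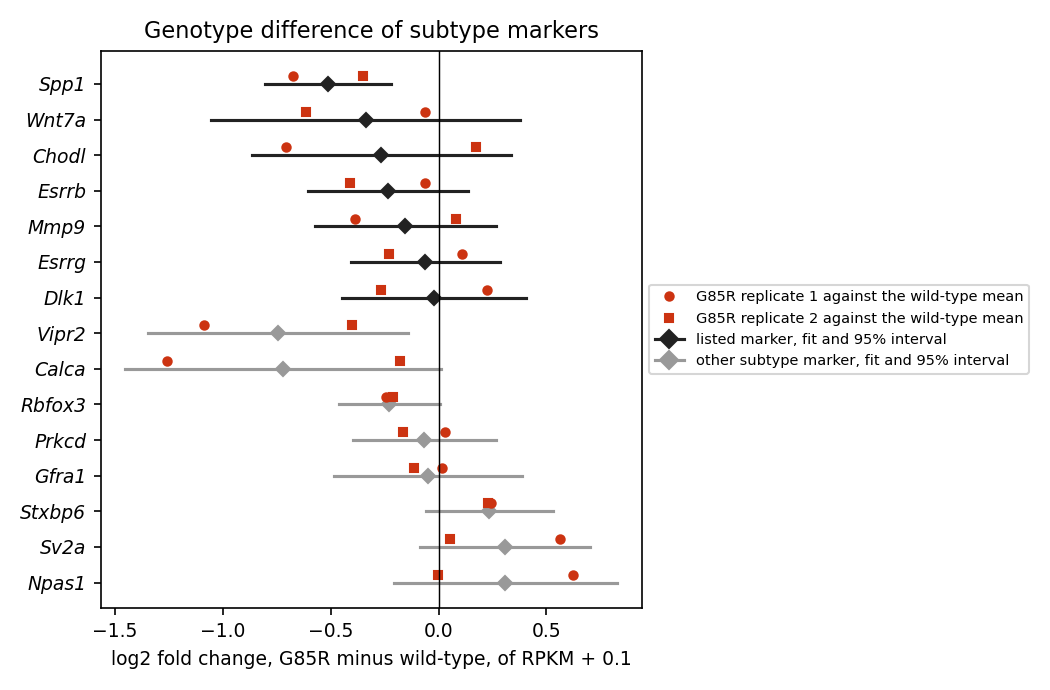
Log2 fold change of RPKM + 0.1, G85R minus wild-type, with its 95% interval from limma (diamonds and lines, black for the 7 markers and gray for other subtype markers), and each G85R library against the wild-type mean (red circles for replicate 1, red squares for replicate 2). Both G85R libraries lay well below 0 for Spp1 and on opposite sides of 0 for Chodl, Mmp9, Esrrg and Dlk1.

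Esrrb and Esrrg encode estrogen-related receptors beta and gamma, orphan nuclear receptors that regulate genes of energy metabolism. Esrrb (26380) lies on chromosome 12 from 87702067 to 87862578 and Esrrg (26381) on chromosome 1 from 189432670 to 190038764, both on the plus strand. The RPKM of Esrrb was 7.37 and 6.89 in wild-type against 6.83 and 5.33 in G85R. The genotypes did not overlap, but G85R replicate 1 was within 1% of the lower wild-type value. The log2 fold change came to -0.24 (standard error 0.16, 95% interval -0.61 to 0.13, adjusted p = 0.671 from limma), and -0.061 without G85R replicate 2. Esrrg was higher than Esrrb, with 27.8 and 24.3 RPKM in wild-type against 28.0 and 22.2 in G85R. In Esrrg the replicates of each genotype differed more than the genotypes, and the log2 fold change came to -0.06 (standard error 0.15, 95% interval -0.41 to 0.28, adjusted p = 0.939 from limma).

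Wnt7a (22421), on chromosome 6 from 91313975 to 91361357 on the minus strand, encodes a secreted Wnt ligand that is enriched in gamma motor neurons. It had 1.50 and 2.46 RPKM in wild-type against 1.84 and 1.22 in G85R, from an estimated 139, 243, 156 and 110 reads. The genotypes overlapped. The wild-type replicates alone were 1.65-fold apart, the widest gap among the 7 markers in that genotype. The log2 fold change came to -0.34 (standard error 0.30, 95% interval -1.05 to 0.38, adjusted p = 0.771 from limma), so that neither a 2-fold decrease nor a small increase was outside the interval.

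No annotated gene overlapped any of the 7 markers in NCBIM37. None of their 75-base transcript windows, between 1433 for Spp1 and 5299 for Esrrg, occurred in a transcript of another protein-coding gene. Whether the markers have identical copies of this length, that of a read, elsewhere in the genome was not tested. The RPKM of 1 read was between 0.00608 and 0.0258 for these genes.

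The subtype lists were widened by other published markers. Each widened list still holds its markers from above, so that its results are not separate from theirs. Median log2 fold changes were -0.21 in the fast list, -0.07 in the slow list and -0.51 in the alpha list, the last being the value of Spp1 itself. In the fast list 0 of 4 genes were called by limma and 0 had an unadjusted p under 0.05. The log-linear test, which includes no spread between animals, called 1, Calca, with an adjusted p of 1.53e-24. The study listed Calca among genes with reduced RNA in the mutant and also found it differentially expressed by qRT-PCR, a separate assay. Calca, the precursor of calcitonin gene-related peptide, was 748 and 884 RPKM in wild-type against 340 and 718 in G85R, and like Chodl and Mmp9 it was lowest in G85R replicate 1 (log2 fold change -0.72, adjusted p = 0.462 from limma). The log2 fold change of Calca was -1.26 without G85R replicate 2 and -0.18 without G85R replicate 1. Thus 3 of the 4 fast markers had their lowest value in that library, Dlk1 being the exception, and the summed RPKM of the list was 1026 and 1163 in wild-type against 521 and 1026 in G85R.

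In the slow list, 3 of 4 genes were tested. By limma 0 were called, with 0 at an unadjusted p under 0.05, and the log-linear test called 0. Sv2a, a synaptic vesicle glycoprotein, was 60.3 and 57.8 RPKM in wild-type against 87.1 and 61.3 in G85R (log2 fold change 0.31, adjusted p = 0.572 from limma). Without G85R replicate 1 the log2 fold change of Sv2a was 0.054, and without G85R replicate 2 it was 0.56. Prkcd, protein kinase C delta, overlapped between the genotypes, with values between 13.4 and 16.5. Kcnn3, a calcium-activated potassium channel of slow motor neurons, was between 0.478 and 0.618 RPKM and was not tested.

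In the gamma list, 6 of 9 genes were tested. Again 0 were called by limma, 0 had an unadjusted p under 0.05 and 0 were called by the log-linear test, with a median log2 fold change of -0.05, against -0.02 for all tested genes. Gfra1, a receptor subunit for GDNF, was the most abundant at 32.3 and 47.7 RPKM in wild-type against 39.6 and 36.3 in G85R. Stxbp6, a syntaxin-binding protein, was 12.9 and 11.1 in wild-type against 14.2 and 14.1 in G85R (log2 fold change 0.24, limma adjusted p = 0.560), and Npas1, a transcription factor, overlapped at 3.62 and 3.90 in wild-type against 5.84 and 3.75 in G85R. The serotonin receptor genes Htr1d and Htr1f and the transcription factor Creb5 had means below 1 RPKM. Htr1d lay between 0.772 and 1.09, Htr1f between 0.369 and 0.612 and Creb5 between 0.283 and 0.758.

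In the alpha list all 3 genes were lower in both G85R libraries than in both wild-type libraries, where 23.9% of all tested genes were. By limma 0 were called, 2 had an unadjusted p under 0.05 and were lower in G85R (6.37% of tested genes), and the log-linear test called Spp1. Besides Spp1 these were Rbfox3, the neuronal splicing regulator known as NeuN (listed in the files as D11Bwg0517e), and Vipr2, a receptor for vasoactive intestinal peptide. Rbfox3 was 63.6 and 60.4 RPKM in wild-type against 52.4 and 53.5 in G85R (log2 fold change -0.23, adjusted p = 0.464 from limma). Vipr2 was 18.1 and 26.0 in wild-type against 10.2 and 16.4 in G85R (log2 fold change -0.74, adjusted p = 0.350 from limma). Its log2 fold change was -1.09 without G85R replicate 2 and -0.40 without G85R replicate 1. In the general motor neuron list 5 of 9 genes were lower without overlap, against 23.9% of tested genes. By limma 0 of these genes were called and 3 (Ret, Lhx3 and Prph) had an unadjusted p under 0.05 and a lower level, against 6.37% of tested genes. The log-linear test called 1, the peripherin gene Prph, at 757 and 870 RPKM in wild-type against 647 and 709 in G85R. The most abundant gene of the list, the neurofilament gene Nefh, overlapped at 1085 and 1068 in wild-type against 1002 and 1106 in G85R. The receptor tyrosine kinase gene Ret was 106.6 and 122 in wild-type against 81.4 and 87.9 in G85R (adjusted p = 0.198 from limma).

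All 9 motor neuron markers had a mean above 1 RPKM, with sums between 2277 and 2835 RPKM, and so had all 8 astrocyte and all 7 oligodendrocyte markers, so that the libraries were not free of RNA of other cells. Nos1, found in preganglionic cholinergic neurons, was low, between 0.362 and 0.652 RPKM. Interneuron markers summed to 186 and 191 RPKM in wild-type against 217 and 200.2 in G85R, and the largest part was that of Slc32a1, the vesicular transporter of GABA and glycine. Microglial markers summed to 19.0 and 20.5 in wild-type against 47.0 and 21.9 in G85R, and astrocyte markers to 904 and 894 in wild-type against 1292 and 990.4 in G85R. All 12 microglial, 8 astrocyte and 7 oligodendrocyte markers were highest in G85R replicate 1, and all 9 motor neuron markers were lowest in it. Most of the astrocyte sum came from Aldoc and S100b, at 458 and 412 RPKM in wild-type replicate 1 against 671 and 498 in G85R replicate 1. The intermediate filament gene Gfap had the largest log2 fold change of that list, with 11.5 and 17.1 in wild-type against 91.9 and 28.4 in G85R. Aldh1l1, another astrocyte marker, overlapped between the genotypes, with a log2 fold change of -0.03. Endothelial markers summed to between 7.49 and 9.96 RPKM. G85R replicate 1 is also the library with the lowest Spp1, Chodl and Mmp9. The part of these other cells in the differences of Spp1, Chodl and Mmp9 was not tested.

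**Figure D3:**
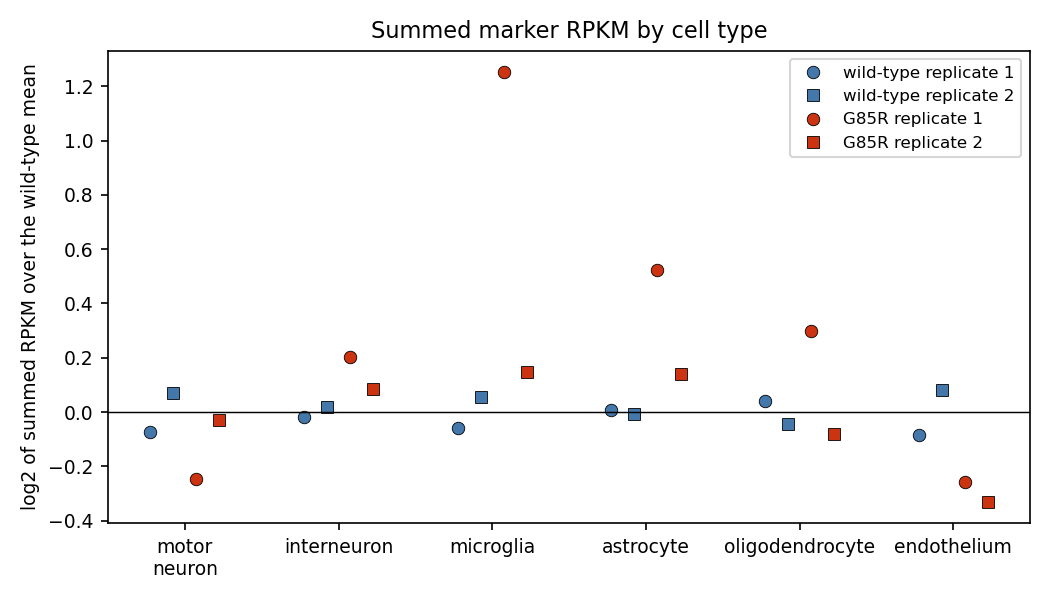
Log2 of the summed RPKM of each list of cell type markers over its mean in the 2 wild-type libraries, for each library (symbols as for the marker levels). G85R replicate 1 had the highest sums for microglia (47.0 RPKM), astrocytes (1292 RPKM) and oligodendrocytes (1080.4 RPKM), and the lowest for motor neurons (2277 RPKM).

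The families and partners of the markers were examined next. Their median log2 fold changes were -0.09 for the family of Mmp9, -0.36 for the receptors and family of Spp1, -0.19 for the partners of Esrrb and Esrrg, 0.14 for the Wnt genes and -0.10 for the Notch pathway, against -0.02 for all tested genes. For Mmp9 these were 25 genes of other matrix metalloproteinases and their inhibitors, of which 7 were tested. By limma 0 were called and 2 had an unadjusted p under 0.05 and a lower level in G85R, against 6.37% of tested genes. The log-linear test called 0. The inhibitor Timp2 was the most abundant and lay at 148 and 129 RPKM in wild-type against 146 and 129.6 in G85R, while Timp1 and Timp4 were listed at 0 throughout. Mmp17, a membrane-anchored metalloproteinase, was 21.3 and 24.3 in wild-type against 13.5 and 15.8 in G85R, a log2 fold change of -0.64 (adjusted p = 0.122 from limma). Its annotated exons share 16 bases with a miRNA gene.

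The list for Spp1 held 14 receptor and family genes, of which 4 were tested, with 0 called by limma and 0 by the log-linear test. By limma 2 had an unadjusted p under 0.05 and a lower level in G85R, against 6.37% of tested genes. Among receptors of osteopontin, the integrin gene Itgb1 was the most abundant, at 68.9 and 66.2 RPKM in wild-type against 69.8 and 77.2 in G85R (adjusted p = 0.756 from limma). The family of Spp1 is a group of genes for acidic phosphoproteins of bone and tooth that lie next to each other on chromosome 5. Dmp1, which encodes dentin matrix protein, begins 233 kb before Spp1 and was 13.6 and 14.2 RPKM in wild-type against 9.54 and 7.92 in G85R. Neither G85R value reached the wild-type range, and the log2 fold change came to -0.67 (standard error 0.13, adjusted p = 0.111 from limma). Ibsp (bone sialoprotein) and Dspp (dentin sialophosphoprotein) were too low to be tested. Ibsp had an estimated 15 and 39 reads in wild-type against 2 and 4 in G85R, and Dspp 10 and 9 reads in wild-type against 1 and 3 in G85R. Mepe, the remaining member, was listed at 0 in all libraries. Each of the 4 detected genes of this cluster, Spp1 included, had both G85R values below both wild-type values, as did 23.9% of all tested genes, but Ibsp and Dspp rest on 1 to 4 estimated reads in G85R.

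To see whether other genes of that region behaved alike, all protein-coding genes within 500 kb of Spp1 were listed, a choice made after the values of the cluster were seen. On one side Nudt9 was 43.6 and 39.1 RPKM in wild-type against 58.6 and 53.6 in G85R (log2 fold change 0.44, adjusted p = 0.194 from limma). Sparcl1, the next gene toward Dmp1 with a listed value, had overlapping values, with 837 and 737 in wild-type against 1001 and 776 in G85R. On the other side Pkd2, whose start is 24.3 kb from that of Spp1, had 1.68 and 2.05 in wild-type against 1.58 and 1.77 in G85R. Hsd17b11, beyond Nudt9, had 17.7 and 16.7 in wild-type against 18.7 and 20.5 in G85R, and BC005561, beyond Pkd2, had 0.687 and 0.785 in wild-type against 1.21 and 0.961 in G85R. Thus Hsd17b11, Nudt9 and BC005561 had both G85R values above both wild-type values, as did 1997 of the 11530 tested genes. Sparcl1 and Pkd2 overlapped. Dspp, Dmp1, Ibsp and Spp1 had both G85R values below both wild-type values, as did 2756 of the tested genes. BC005561, like Dspp and Ibsp, was too low to be tested.

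**Figure D4:**
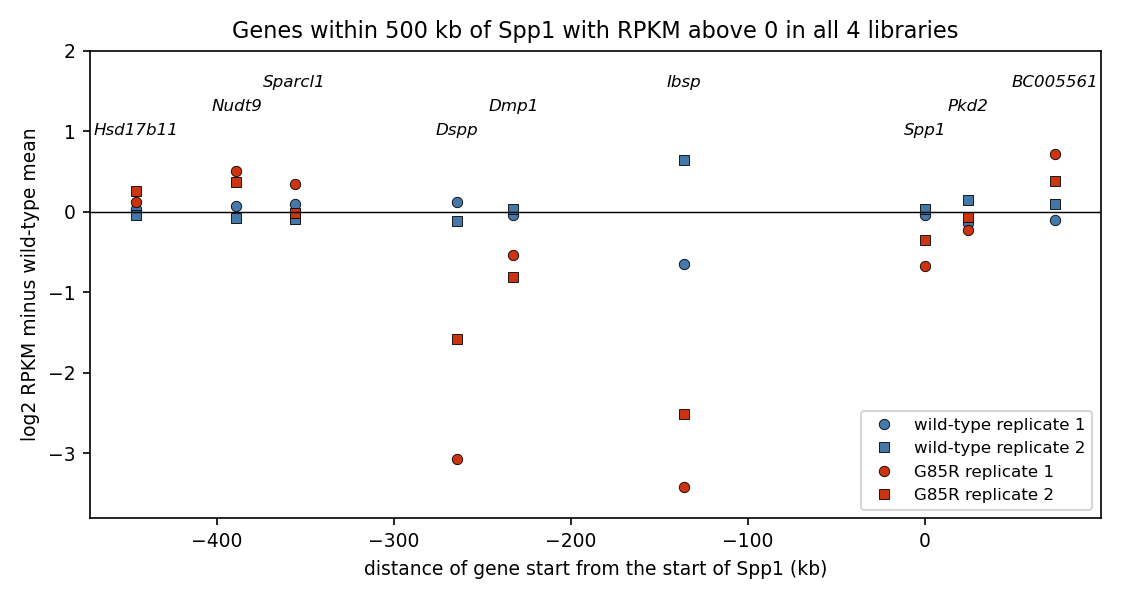
Log2 RPKM of each library minus the mean of the wild-type libraries (vertical axis), for genes with an RPKM above 0 in all 4 libraries, placed by the distance of their start from that of Spp1 in kb (symbols as for the marker levels). The G85R values are below the wild-type values for Dspp, Dmp1, Ibsp and Spp1, and Dspp and Ibsp rest on 1 to 4 estimated reads in G85R.

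For Esrrb and Esrrg, 6 of 8 partners were tested, with 0 called by limma and 0 by the log-linear test. By limma 2 had an unadjusted p under 0.05 and a lower level in G85R, against 6.37% of tested genes. Esrra, the third receptor of the family, was the most abundant at 51.3 and 60.6 RPKM in wild-type against 56.4 and 65.7 in G85R (adjusted p = 0.815 from limma). Ncoa1, a nuclear receptor coactivator, was 13.8 and 15.6 in wild-type against 10.9 and 11.4 in G85R (log2 fold change -0.39, adjusted p = 0.302 from limma). Of 34 genes of Wnt ligands, receptors and secretion factors, 33 were found and 12 were tested, with 0 called by limma. Of these, 1 was higher and 1 lower at an unadjusted p under 0.05, where 11.0% of tested genes were in either direction, and the log-linear test called 0. Porcn, the acyltransferase that Wnt proteins require for secretion, was highest at 33.4 and 40.2 in wild-type against 43.5 and 47.2 in G85R (log2 fold change 0.31, adjusted p = 0.439 from limma). Wnt10a, another ligand, was 2.21 and 4.82 in wild-type against 1.16 and 1.39 in G85R (log2 fold change -1.30, adjusted p = 0.218 from limma). The wild-type replicates of Wnt10a were 2.18-fold apart. Without wild-type replicate 1, which leaves only the higher wild-type library, the log2 fold change of Wnt10a was -1.85.

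Among 16 genes of the Notch pathway, 8 were tested, with 0 called by limma and 0 by the log-linear test. By limma 3 had an unadjusted p under 0.05 and a lower level in G85R, against 6.37% of tested genes. Hey1, a target of Notch signaling, was the most abundant, with 33.1 and 38.9 RPKM in wild-type against 31.6 and 37.4 in G85R. Dlk2, the closest relative of Dlk1, had the largest log2 fold change of all tested genes in the lists, with 2.18 and 2.42 RPKM in wild-type against 0.463 and 0.143 in G85R, from an estimated 96, 113, 19 and 6 reads. Both wild-type values were several times those of G85R, and the log2 fold change came to -2.70 (standard error 0.41, adjusted p = 0.0509 from limma), just short of the threshold of 0.05. Over the alternatives the adjusted p of Dlk2 ranged from 1.04e-07, with rescaling by motor neuron markers, to 1 with the log-linear test. Its annotated exons share 132 bases with Abcc10 on the other strand, and reads of such genes cannot be told apart without strand. Layn, a lectin related to Chodl, overlapped between the genotypes at 20.8 and 22.9 in wild-type against 16.9 and 22.8 in G85R.

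Finally, the tested genes whose levels followed those of Spp1 most closely were found by the root mean square difference of log2 levels over the 4 libraries, after each gene was centered on its mean. They were Alcam, a cell adhesion molecule (difference 0.0141), Itm2a, an integral membrane protein (0.0192), and Tgfb3, a ligand of the TGF-beta family (0.0241). Each had both G85R values below both wild-type values, Alcam with 11.1 and 11.5 RPKM in wild-type against 7.12 and 8.93 in G85R. These are the closest of 11530 genes over 4 libraries and are given as a description.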

How the data were processed

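The authors mapped 75-base single-end reads with Bowtie 0.12.3 to mm9 and splice junctions, and quantified UCSC gene clusters with Cufflinks. The deposited values are RPKM per library, scaled by uniquely mapped reads, and a second RPKM with 1 read added to each gene. The difference between both is the RPKM of 1 read, by which RPKM was divided to estimate reads. These estimates summed to between 21560318 and 25186594 per library and were given no intervals.

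Genotypes were compared 2 against 2 with limma 3.58.1 in R 4.3.3 (lmFit, eBayes with trend) on log2(RPKM + 0.1) at a mean RPKM of 1 or more, with Benjamini-Hochberg adjustment over 11530 genes and a threshold of 0.05. Replicates are separate mice. Alternatives were a Poisson log-linear likelihood ratio test, which is the study's kind of test, on 27189 genes, and other pseudocounts, filters, scalings, moderation, a replicate block and leaving out each library. Scripts were tested on simulated data. Positions are from an NCBIM37 annotation, the same assembly as mm9. The genes named were the markers, the other genes of the subtype lists, and from other lists the most abundant gene and the gene of lowest p without overlap, and Spp1's 3 closest matches. Other genes, such as those around Spp1, Ibsp, Dspp, Mepe, Timp1, Timp4, Lhx3 and Prph, were chosen after their values were seen. The markers and lists were chosen with earlier results of these data known. Tables and figures were made with Python 3.11.15, pandas 2.3.3 and matplotlib 3.10.9. One listed gene is not reported here.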

Additional observations from a re-analysis of the deposited data

How the results depend on the processing

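Spp1 was lower in G85R in all 16 alternatives (log2 fold change from -0.68 to -0.27). Of the alternatives with all 4 libraries, it was called with a replicate block and with the log-linear test. With a replicate block its log2 fold change of -0.51 had an adjusted p of 0.00678 from limma, and 527 genes were called in place of 74. The labels do not say what replicates of a number share, and the deviations of same-numbered libraries correlated with r = 0.22 across genes. Among the 7 markers the block changed no other call, while 9 other named genes were also called with it, Dlk2 (adjusted p = 0.00162), Vipr2 (0.00237), Mmp17 (0.00472), Wnt10a (0.00979), Dmp1 (0.0106), Gfap (0.0126), Ret (0.0126), Calca (0.0183) and Chat (0.0358). With the log-linear test the value of Spp1 was -0.50. Fits that leave out a library have 1 library in that genotype and no spread between its mice. Calls from such fits are therefore not evidence of a difference, and their counts below are given as a description. Without G85R replicate 2 the fit for Chodl also loses its highest value, 258 RPKM. The number of called markers was 1 with the block and 1 with the log-linear test, and 0 to 2 without one library, with 2 (Spp1 and Chodl) without G85R replicate 2. The number of called genes was 112 without a filter, 17 at a minimum RPKM of 5, where Wnt7a was not tested, 39 after quantile normalization, 49 without the trend, and 78 to 188 without one library, with 188 without G85R replicate 2. Rescaling by motor neuron markers, chosen after seeing the data, called 324 genes (252 higher and 72 lower, against 31 and 43) and added 0.24 to the log2 fold change of every gene.

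Without one library, log2 fold changes ranged from -0.68 to -0.35 for Spp1, -0.71 to 0.17 for Chodl, -0.39 to 0.078 for Mmp9, -0.23 to 0.11 for Esrrg, -0.27 to 0.23 for Dlk1, -0.68 to 0.0033 for Wnt7a, -0.20 to 0.068 for Prkcd, -0.33 to 0.23 for Gfra1, -0.0031 to 0.62 for Npas1, -0.10 to 0.040 for Nefh, -0.11 to 0.086 for Timp2, -0.18 to 0.059 for Hey1 and -0.37 to 0.061 for Layn. Esrrb ranged from -0.41 to -0.061 and Sv2a from 0.054 to 0.56. Through the same shift of every gene, rescaling by motor neuron markers gave 0.087 for Mmp9, 0.0060 for Esrrb, 0.18 for Esrrg, 0.22 for Dlk1, 0.17 for Prkcd, 0.19 for Gfra1, 0.015 for Rbfox3, 0.21 for Nefh, 0.23 for Timp2, 0.18 for Hey1 and 0.088 for Layn. Dlk1 was also 0.020 after quantile normalization, 0.0026 after rescaling by the median ratio and 0.00015 in the log-linear test, and Timp2 was 0.010 after rescaling by the median ratio. The causes of these changes were not tested. Depth limits Wnt7a most among the markers.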

Other observations

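Ratios of markers within a library were formed after the values were seen, and are given as values. Spp1 over Esrrg, a ratio of an alpha to a gamma marker, was 35.6 and 42.8 in wild-type against 22.7 and 35.9 in G85R, and Chodl over Esrrg was 8.34 and 9.28 in wild-type against 5.00 and 11.7 in G85R, so that both overlapped between the genotypes. Mmp9 over Chodl, both fast markers, was 0.160 and 0.200 in wild-type against 0.223 and 0.167 in G85R. Mmp9 relative to Chat was 0.558 and 0.555 in wild-type against 0.629 and 0.658 in G85R, and Esrrg over Esrrb was 3.77 and 3.53 in wild-type against 4.10 and 4.16 in G85R. In these last ratios both G85R values were the higher ones. Dlk1 over Dlk2 was 3.88 and 3.23 in wild-type against 20.6 and 47.1 in G85R. None of these ratios was tested.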
